A study of Homo sapiens with 8 samples.

Results

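The endocardial and cardiac regulators described here are 10 genes: the transcription factors GATA4, GATA5, GATA6, NFATC1, HAND2, TBX2, TBX3 and TBX20, the cadherin CDH11 and the receptor NPR3. They were taken by gene symbol from the deposited table of 30386 genes, and each symbol matched 1 row. The RNA-seq libraries came from 2 kinds of stem cell-derived endothelium, labelled iEC (endothelial) and iREC (retinal endothelial), with 4 libraries of each, lettered C to F. The source of both was WTC-TJP1, a human iPSC line, and all cells were at passage 1. A single line was used, so all libraries share 1 genetic background; the agents used for either differentiation are not given in the sources used here, and nothing states that libraries of a group came from separate cultures, so the spread between them may be technical. The members were chosen with the difference between iREC and iEC already known, so their own differences are given as a description without a test.

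The endocardium is the endothelial lining of the heart. It expresses the general endothelial genes together with regulators that are shared with the heart field, and part of it turns into mesenchyme to form the valve cushions. GATA4, GATA5 and GATA6 are zinc-finger factors that bind GATA motifs and act in heart and endoderm development. NFATC1 is a calcineurin-regulated factor known for its role in endocardial cells of the forming valves. HAND2 is a basic helix-loop-helix factor of the second heart field and endocardium, TBX2 and TBX3 are T-box repressors that mark the non-chamber myocardium, and TBX20 is a T-box factor of myocardium and endocardium. CDH11 is a type II cadherin of mesenchyme and valve cushions, and NPR3 is the clearance receptor that removes natriuretic peptides and is a common marker of endocardium. None of these genes is exclusive to the heart.

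Total counts per library ran from 13739364 to 16971865, so the detection floor used here, 3 counts, stood for 0.178 to 0.215 CPM (counts relative to library size, after scaling by the TMM method of edgeR). All 10 general endothelial markers examined (PECAM1, CDH5, KDR, TIE1, ERG, VWF, ROBO4, CLDN5, TEK and EMCN) were detected in every library. Summed over the list, iEC libraries had 6409 to 8304 CPM. The iREC range was 4286 to 9639 CPM, with the lowest value in iREC F. In bulk RNA, more cells with a transcript and more transcript per cell cannot be told apart.

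Of the 10 genes, 7 passed the filter on low counts, and GATA5, TBX2 and TBX20 did not. The groups did not overlap in 6 of the 10. Of these, GATA5, GATA6, NFATC1, CDH11 and NPR3 were higher in every iREC library, and TBX3 was lower in every iREC library. Among all 15330 tested genes, 29.1% had groups that did not overlap, 14.5% with iREC higher and 14.6% with iREC lower. By edgeR's quasi-likelihood test at an adjusted p under 0.05, 5 of the 7 tested members fell among the genes called higher in iREC (GATA6, NFATC1, HAND2, CDH11 and NPR3) and 1 among those called lower (TBX3), where the shares over all tested genes were 25.0% in either direction, 13.2% higher and 11.7% lower. As the members were chosen on this contrast, nothing is read from these counts.

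**Figure D1:**
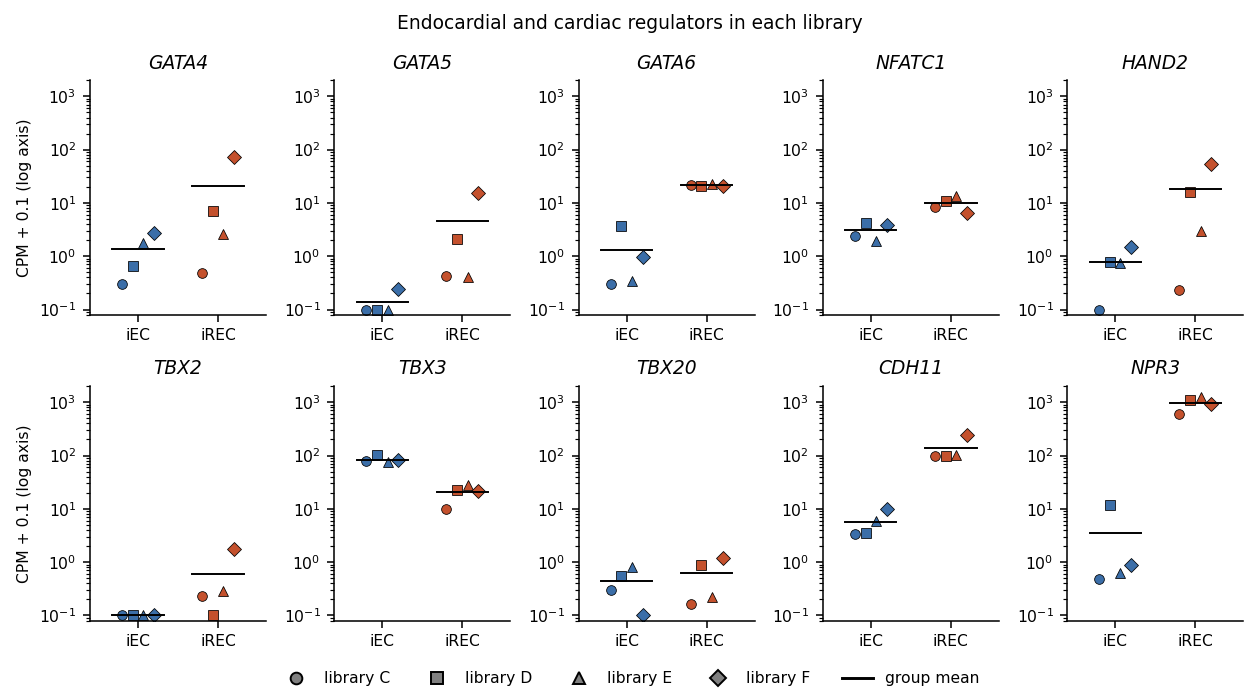
Level of each of the 10 genes in every library, as CPM + 0.1 on a log axis, with iEC in blue, iREC in red, marker shape for the library letter and a bar at the group mean (n = 4). GATA6 sits between 20.3 and 22.3 CPM in all iREC libraries, whereas GATA4 and HAND2 reach 74.0 and 53.5 CPM in iREC F and lie under 0.4 CPM in iREC C.

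GATA6 (ENSG00000141448, GRCh38 chromosome 18, 22169443 to 22202528) was the most even of the GATA factors within iREC, though not within iEC, where its range between libraries was 3.52 on the log2 scale against 3.06 for GATA4 and 1.07 for GATA5. Its counts were 3, 57, 4 and 12 in iEC C, D, E and F, and 328, 292, 365 and 310 in iREC C, D, E and F. The iREC libraries lay close together, and iEC D stood above the other iEC libraries by a factor of several. The mean was 1.22 ± 1.62 CPM for iEC, against 21.2 ± 0.853 CPM for iREC (SD, n = 4), a fitted log2 fold change of 4.11 ± 0.76 (SE, edgeR). Without iEC D the log2 fold change was 5.62, and it was 5.01 by limma-voom. The spread of GATA6 within iREC, 0.13 on the log2 scale between the highest and lowest library, was small: only 2.46% of tested genes had a smaller one.

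GATA4 (ENSG00000136574, chromosome 8, 11676959 to 11760002) differed from GATA6 in its spread. Its counts were 3, 9, 28 and 36 in iEC C, D, E and F, and 6, 99, 42 and 1129 in iREC C, D, E and F. The groups overlapped, since iREC C lay below iEC D, E and F, and iREC F alone held 88.1% of the CPM summed over the iREC libraries. The mean was 1.25 ± 1.08 CPM for iEC, against 21.0 ± 35.4 CPM for iREC (SD, n = 4). Without iREC F the iREC mean was 3.34 ± 3.40 CPM (SD, n = 3). The fitted log2 fold change was 4.07 ± 1.43 (SE, edgeR), 1.41 without iREC F and 2.47 by limma-voom, so the size of this difference rests largely on 1 library.

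GATA5 (ENSG00000130700, chromosome 20, 62463497 to 62475970) was nearly silent in iEC, with 0 counts in C, D and E and 2 in F. The iREC libraries C, D, E and F had 5, 28, 5 and 234 counts, so iREC F held 85.3% of the summed iREC CPM. Over the group totals of 272 and 2 counts the ratio was 139, with an exact 95% interval of 38 to 1150 for counting error only. Without iREC F the ratio was 25.8 (6.67 to 221). GATA5 and GATA4 were therefore both highest in iREC F, whereas GATA6 was slightly lower there than in the other iREC libraries.

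NFATC1 (ENSG00000131196, chromosome 18, 79395856 to 79529325) had 35, 66, 31 and 52 counts in iEC C, D, E and F, and 128, 153, 218 and 97 in iREC. Every iREC library lay above every iEC library, and iREC F was the lowest iREC library for this gene. The means were 3.0 ± 1.12 and 9.74 ± 3.03 CPM (SD, n = 4), a fitted log2 fold change of 1.70 ± 0.35 (SE, edgeR). It ranged from 1.51 to 1.89 when any single library was left out.

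HAND2 (ENSG00000164107, chromosome 4, 173524969 to 173530229) followed GATA4. Its counts were 0, 11, 11 and 19 in iEC C, D, E and F, and 2, 222, 47 and 816 in iREC. The iREC C library lay below iEC D, E and F, and iREC F was the highest. Means were 0.677 ± 0.556 and 18.1 ± 24.6 CPM (SD, n = 4), with a fitted log2 fold change of 4.74 ± 1.45 (SE, edgeR), 3.21 without iREC F and 3.51 by limma-voom. In iREC the order of libraries from low to high, C, E, D and F, was the same for GATA4, HAND2 and TBX20. The same order was found in 7.89% of all tested genes.

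The long non-coding gene HAND2-AS1 lies on the opposite strand and shares 867 bases with HAND2 exons, 24.1% of them. Its level was 0 CPM in iREC C, 2.63 in E, 9.64 in D and 28.4 in F, the order seen for HAND2, and at most 0.506 CPM in iEC. Whether the reads were counted by strand is not given in the sources used here, so reads of the shared bases cannot be assigned to either gene with certainty. HAND2-AS1 did not pass the filter on low counts. GATA6-AS1, which shares 240 bases or 6.08% of the GATA6 exons, was 1.24 to 1.65 CPM in iREC and at most 0.190 CPM in iEC, and rose (4.37 ± 0.70 SE in log2, adjusted p of 0.00200 by edgeR). It passed the filter through iREC alone, so a call in the other direction was hardly possible. Its reads in the shared bases cannot be assigned with certainty either.

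Because HAND2 and GATA6 are each transcribed beside an antisense RNA that was higher in the same libraries, the sequence upstream of their start is shown, with that of NPR3, the member with the highest iREC level. The RefSeq promoter table (GRCh38.p14) held 5 of the 10 genes. Windows begin 250 bases before the annotated start, run 5′ to 3′ on the gene's strand and stop before any exon of the same gene in GENCODE 29. Capitals mark the letters GATAA (the core of GATA sites) and GGTGTG (a T-box core), searched on both strands.
HAND2, chr4:173530230-173530479, minus strand: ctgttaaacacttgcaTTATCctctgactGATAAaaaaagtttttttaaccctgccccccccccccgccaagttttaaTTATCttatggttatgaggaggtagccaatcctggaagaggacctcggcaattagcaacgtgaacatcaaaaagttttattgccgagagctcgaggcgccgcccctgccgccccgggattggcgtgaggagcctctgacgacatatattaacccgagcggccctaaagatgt
GATA6, chr18:22169339-22169442, plus strand: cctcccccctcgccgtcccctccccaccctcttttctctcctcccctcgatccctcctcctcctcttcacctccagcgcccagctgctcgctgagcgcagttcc
NPR3, chr5:32690622-32690871, plus strand: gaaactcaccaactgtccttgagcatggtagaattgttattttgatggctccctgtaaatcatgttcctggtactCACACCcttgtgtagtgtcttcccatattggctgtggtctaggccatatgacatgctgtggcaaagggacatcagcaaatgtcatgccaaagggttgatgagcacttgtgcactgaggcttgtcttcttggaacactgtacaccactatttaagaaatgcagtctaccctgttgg

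The HAND2 window held GATAA 3 times, beginning 234, 221 and 172 bases before the start. Of all 35116 promoters in the table, 20.4% held it at least once in a window of that length. In that window 109 of the 250 bases lie in exons of HAND2-AS1. The GATA6 window, of 104 bases, held neither set of letters, where 10.1% of promoters hold GATAA and 5.96% GGTGTG in the same stretch. The NPR3 window held GGTGTG 1 time, on the minus strand, where 14.2% of promoters do; it lies inside the NPR3 gene as GENCODE 29 draws it, outside its exons. The E-box letters CANNTG, of the kind bound by HAND2 and other basic helix-loop-helix factors, occurred 1 time in the HAND2 window, 4 times in NPR3 and 1 time in GATA6; 61.8% of promoters hold them in 250 bases and 34.2% in 104. The NFAT core GGAAA was in none of the 3 windows (0), and 55.6% of promoters hold it in 250 bases and 30.5% in 104. Such matches are letters only, and gene counts do not tell which start was used.

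TBX3 (ENSG00000135111, chromosome 12, 114670254 to 114684164) was the single member with lower values in iREC. It had 1193, 1594, 1257 and 1144 counts in iEC C, D, E and F, and 153, 318, 455 and 334 in iREC. All iREC libraries lay far below all iEC libraries, and iREC C was the lowest. Means were 83.7 ± 11.8 and 20.6 ± 7.52 CPM (SD, n = 4), a fitted log2 fold change of -2.02 ± 0.28 (SE, edgeR).

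TBX2 (ENSG00000121068, chromosome 17, 61399896 to 61409466), the nearest relative of TBX3, had 0 counts in all iEC libraries and 2, 0, 3 and 25 in iREC C, D, E and F. Only iREC F was above the floor of 3 counts. Against 3 counts over the iEC group, the iREC total of 30 counts was at least 10.2-fold higher, a bound that rests on that library. TBX20 (ENSG00000164532, chromosome 7, 35202430 to 35254147) had 3, 7, 12 and 0 counts in iEC and 1, 11, 2 and 17 in iREC. Its groups overlapped throughout, and a difference was not detectable at this depth: without the filter the fitted log2 fold change was 0.58 ± 0.96 (SE, edgeR).

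CDH11 (ENSG00000140937, chromosome 16, 64943753 to 65126112) had 50, 53, 99 and 137 counts in iEC C, D, E and F, and 1496, 1388, 1639 and 3745 in iREC. The iREC libraries C, D and E were nearly equal, at 97.9, 99.1 and 100.1 CPM, and F stood apart at 245 CPM. In iEC, too, library F was the highest, at 9.81 CPM. Means were 5.57 ± 3.07 and 136 ± 73.2 CPM (SD, n = 4), a fitted log2 fold change of 4.61 ± 0.48 (SE, edgeR) that was 4.15 without iREC F.

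NPR3 (ENSG00000113389, chromosome 5, 32689070 to 32791724) had 6, 186, 9 and 11 counts in iEC C, D, E and F, and 9153, 15555, 20193 and 14076 in iREC. Its lowest iREC library held many times the counts of its highest iEC library. Means were 3.37 ± 5.60 and 966 ± 276 CPM (SD, n = 4), a fitted log2 fold change of 8.16 ± 1.12 (SE, edgeR). As with GATA6, iEC D carried most of the iEC signal, at 11.8 CPM or 1.22% of the iREC mean. Without iEC D the log2 fold change was 10.71, and it was 9.56 by limma-voom.

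Levels of different genes were compared per kb of deposited gene length. In iREC, NPR3 stood first at 97.9 ± 28.0 CPM per kb (SD, n = 4), and its lowest library, 60.7, was above the highest of CDH11, 18.3. CDH11 followed at 10.1 ± 5.47, with each library above all those of GATA6 at 5.38 ± 0.216. The means of HAND2 (5.02 ± 6.82), GATA4 (4.72 ± 7.97), TBX3 (3.46 ± 1.26), GATA5 (1.73 ± 2.80) and NFATC1 (1.07 ± 0.334) came next, but HAND2 and GATA4 ran from under 0.1 in iREC C to 14.8 and 16.6 CPM per kb in iREC F. Their range thus spans that of GATA6 and reaches into that of CDH11, and neighbours in this stretch of the order do not differ beyond their spread. TBX20 at 0.278 ± 0.273 overlapped TBX2 at 0.0809 ± 0.128 CPM per kb. In iEC, TBX3 stood alone at 14.1 ± 1.98 CPM per kb, and its lowest library, 12.5, was above every library of the other 9 genes, which had means of at most 0.416.

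**Figure D2:**
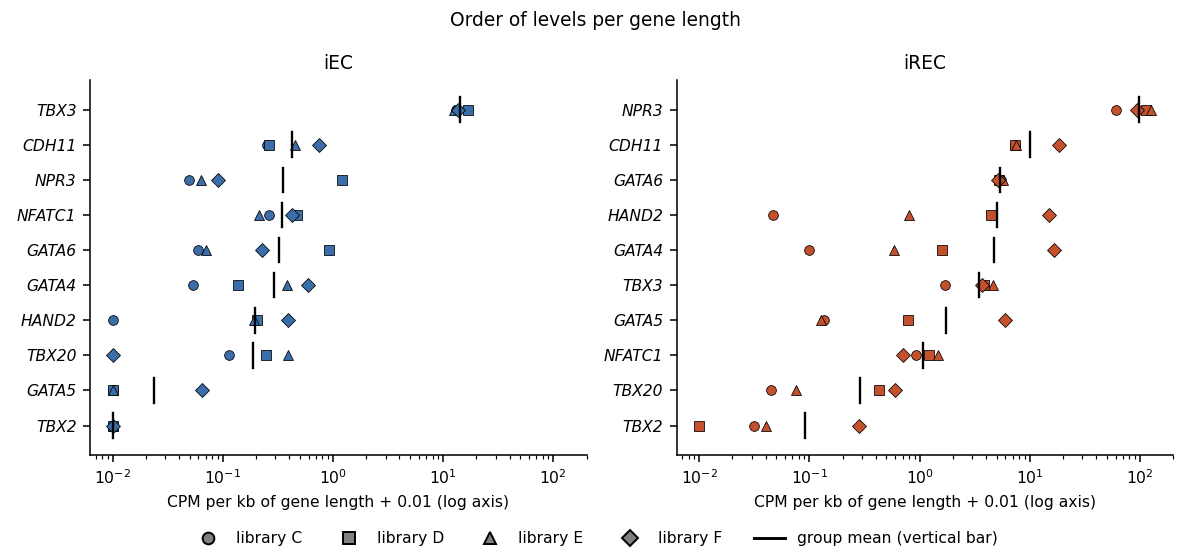
Level per kb of gene length (CPM per kb + 0.01, log axis) of the 10 genes in the libraries of iEC (left) and iREC (right), ordered by the group mean, which the vertical bar marks (n = 4). TBX3 leads iEC at 14.1 CPM per kb, and NPR3 leads iREC at 97.9 CPM per kb.

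A pair of libraries stood apart for these genes, and they did so for different members. Fold differences here were taken on log2 CPM with the prior count of 2, which shrinks those of low-count genes. On that scale iREC F was more than 8-fold above the median of the other iREC libraries for GATA4, GATA5 and HAND2. TBX2 was not picked, though it was 1.64 CPM in iREC F and at most 0.183 CPM in the others. Among the 15330 tested genes, 117 (0.763%) were picked. GATA5 is not among the tested genes, and the filter also left out HAND1 and DCN, both highest in iREC F. That share is therefore not a like-for-like background. iEC D was more than 8-fold above the median of the other iEC libraries for GATA6 and NPR3, as it was for 29 tested genes (0.189%), of which 15 were called higher in iREC. The total counts of iREC F and iEC D, 15753362 and 15491620, were neither the highest nor the lowest of the series.

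Markers of other cell types moved with the first pattern. The summed level of 12 mesenchymal and mural markers was 4575 CPM in iREC F, against 631 to 1271 CPM in the other iREC libraries and 235 to 491 CPM in iEC. COL3A1, a fibrillar collagen, was 1641 CPM in iREC F against 32.5 CPM in iREC C, and the proteoglycan gene DCN 134 against 0.589 CPM. All 12 genes of the list were at 1 CPM or more in iREC F, PDGFRA being the lowest at 1.70 CPM. Epicardial and mesothelial markers summed to 885 CPM in iREC F, of which LRRN4 made up 498 CPM. The sum was 52.9 to 223 CPM in the other iREC libraries and 75.2 to 177 CPM in iEC. KRT19 was 207 CPM, BNC1 126 CPM and BNC2 36.2 CPM in iREC F, each above its other iREC libraries, which reached 72.2, 51.9 and 8.07 CPM. In iEC these genes reached 106, 43.4 and 20.8 CPM. ITLN1 and MSLN were not highest in iREC F: ITLN1 was 5.83 CPM there and 6.47 CPM in iREC E, and MSLN was 0 there. The epicardial factor WT1 was 7.79 CPM in iREC F and at most 0.428 CPM in the other iREC libraries, and TCF21 was 0.393 CPM and at most 0.183 CPM. The part of such cells in the levels of GATA4, GATA5, HAND2, TBX2 and CDH11 was not tested. NFATC1, GATA6 and NPR3 were not higher in iREC F than the mean of the other iREC libraries.

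Cardiomyocyte markers differed from one another. Of 14 such markers, 12 were listed and 3 passed the filter on low counts. The summed level was 3.32 to 4.80 CPM in iEC, 27.1 to 97.2 CPM in iREC C, D and E, and 318 CPM in iREC F. ACTC1, the cardiac alpha-actin gene that is also expressed in other developing muscle, made up most of it, at 263 CPM in iREC F. TTN and PLN, the phospholamban gene, were each 22.1 CPM there, against at most 7.99 and 2.43 CPM in the other iREC libraries and 1.96 and 0.130 CPM in iEC, and RYR2 was 1.57 CPM in iREC F. In that library 5 of the 12 listed markers were above 1 CPM. The cardiac troponin gene TNNT2 was 0 in all libraries but iREC F, where it was 0.721 CPM. MYH6 was 0 in every iREC library, MYL2 likewise, and MYL7 was 7.01 CPM in iREC F and at most 0.428 CPM elsewhere. edgeR called 2 of the 3 higher, ACTC1 (adjusted p 0.000782) and the titin gene TTN (adjusted p 0.0118), also without iREC F. limma-voom called 0 of them, with 0.0574 and 0.0540 as adjusted p, though 2 of the 3 had an unadjusted p under 0.05. Of all tested genes, edgeR called 13.2% higher. ACTC1 was at most 0.286 CPM in any iEC library and passed the filter through iREC alone.

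**Figure D3:**
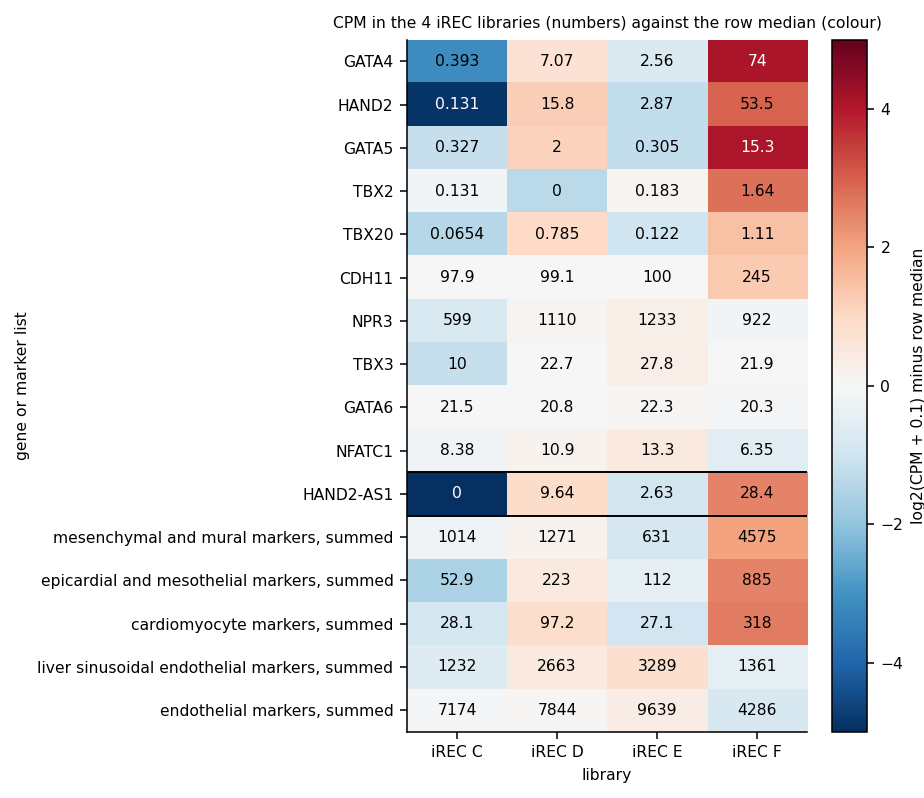
CPM (numbers) of the 10 genes, HAND2-AS1 and summed marker lists in the 4 iREC libraries, with colour for log2(CPM + 0.1) minus the median of the row. GATA4, HAND2, GATA5 and the mesenchymal, epicardial and cardiomyocyte sums are highest in iREC F, while GATA6 and NFATC1 are not, and the endothelial sum is lowest there, at 4286 CPM.

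The genes closest to 4 of the members were sought among protein-coding genes with at least 10 CPM in a group, by the root mean square difference of log2 CPM profiles over the 8 libraries. For NFATC1 these were SHC2, INPP5D and PIK3C2B (differences of 0.17 to 0.19 on the log2 scale), a signalling adaptor, an inositol phosphatase and a lipid kinase. The median over 9957 genes was 1.02. For GATA4 they were WNT2B, a Wnt ligand, SPP1, which encodes osteopontin, and the collagen receptor gene DDR2, at 0.49 to 0.53 against a median of 2.37 over all 9956. All 3 were highest in iREC F, with WNT2B at 282 CPM there and 3.08 CPM in iREC C.

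For HAND2 the nearest were PARM1, NAT8L and GATA4 itself, at 0.67, 0.77 and 0.81, against a median of 2.75. For NPR3 they were GDF7, a ligand of the BMP family, TMEM100, a membrane protein of endothelium, and GJA5, which encodes connexin 40. Their differences were 0.68 to 0.69 against a median of 4.90. Each of them shared the raised value in iEC D: GDF7 was 4.05 CPM there and at most 0.260 CPM in the other iEC libraries, and GJA5 was 16.1 against at most 1.29 CPM. GATA6 showed the same feature at 3.60 against at most 0.859 CPM. The nearest genes were picked by likeness over these same libraries, so the high values they share with a member in iREC F or iEC D follow from that choice. The RNA profile of a member and its neighbours says nothing of shared control.

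Other genes known from endocardium differed between the groups mostly in 1 direction. All 12 passed the filter on low counts, and edgeR called 9 of them, all higher in iREC, where 13.2% of all tested genes were called higher. Their median log2 fold change was 1.93, against 0.020 for all tested genes. The count was 9 under DESeq2, limma-voom, the replicate block and without iREC F, and 7 without iEC E. TMEM100 rose from 0.966 ± 1.89 to 395 ± 156 CPM (SD of 4 libraries, adjusted p of 0.000753 by edgeR), with 3.79 CPM in iEC D and at most 0.0716 in the other iEC libraries. ADGRG6, an adhesion receptor needed for trabeculation, rose from 21.4 ± 16.1 to 714 ± 156 CPM (5.06 ± 0.58 SE in log2, adjusted p of 0.000360 by edgeR). NRG1, the endocardial ligand that signals to ERBB receptors of myocardium, rose from 3.62 ± 1.46 to 61.9 ± 19.9 CPM (edgeR adjusted p 0.000104). HAPLN1, NOTCH1 and DLL4 were not called. HAPLN1, a hyaluronan-binding cushion matrix protein, was 61.4 and 99.2 CPM in iEC C and D, 10.4 CPM in both E and F, and 16.2 to 31.4 CPM in iREC. This list and those that follow were chosen with earlier results of these data known, so their counts and medians are given as a description. For every list that follows, the shares over all tested genes were 25.0% called, 13.2% higher and 11.7% lower.

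Among 15 other cardiac transcription factors, 13 were listed and 7 passed the filter. edgeR called 4 higher and 2 lower (median log2 fold change 0.81). HEY2, a target of Notch, rose from 5.32 ± 3.08 to 45.4 ± 12.8 CPM, TEAD1, an effector of Hippo signalling, from 52.3 ± 2.96 to 204 ± 71.6 CPM, and the homeobox gene MEIS2 from 65.5 ± 13.4 to 145 ± 23.8 CPM (SD, n = 4), with edgeR adjusted p of 0.000976, 0.000339 and 0.00181. HOPX fell from 96.9 ± 6.95 to 1.21 ± 0.827 CPM (-6.32 ± 0.41 SE in log2, adjusted p of 2.26e-05 by edgeR), and MEF2C fell from 130 ± 22.2 to 43.3 ± 11.6 CPM (edgeR adjusted p 0.000778). NKX2-5 and ISL1 were near 0: NKX2-5 was at most 0.501 CPM in any library, and ISL1 was 0 in every library but iEC C. TBX5 was not listed. HAND1, the relative of HAND2, was 0 in all iEC libraries and 0.327, 6.49, 0.733 and 108 CPM in the iREC libraries C to F, so it was also highest in iREC F. It did not pass the filter.

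Of 10 GATA family members and partners, 9 passed the filter, and edgeR called 4 higher and 1 lower (median 0.42). ZFPM2, the cofactor of GATA4 also known as FOG2, rose from 5.79 ± 1.71 to 27.4 ± 2.63 CPM (SD of 4 libraries), a log2 fold change of 2.24 ± 0.23 (SE) with an adjusted p of 0.000212 by edgeR. GATA3 rose from 35.7 ± 23.0 to 140 ± 46.0 CPM (adjusted p of 0.00848 by edgeR), and GATA2, the main GATA factor of endothelium, was called higher at a log2 fold change of 0.54 (edgeR adjusted p 0.0109). The bridging factor LMO2 (0.99 on the log2 scale, edgeR adjusted p 0.0314) lost its call in 4 of the 8 fits that left out a library and under the replicate block, and the nuclear receptor NR2F2 (-1.30, edgeR adjusted p 0.0392) in 6 of those fits. The adjusted p ran to 0.0862 for LMO2 and 0.110 for NR2F2. With these, the count of calls in the list ran from 3 (without iEC F, iREC D or iREC E) to 6 (without iREC F).

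Of 14 other T-box genes, 10 were listed and 5 passed the filter; edgeR called 2 higher and 1 lower (median 0.82). TBX18, known from epicardium and sinus venosus, rose from 5.05 ± 1.61 to 45.9 ± 9.47 CPM, and TBX1, known from the pharyngeal second heart field, from 0.962 ± 0.300 to 5.53 ± 0.700 CPM (SD of 4 libraries, adjusted p of 6.87e-05 and 0.000432 by edgeR). TBX15 fell from 48.3 ± 7.54 to 32.2 ± 6.46 CPM (edgeR adjusted p 0.0390), a call lost in 6 of the 8 fits that left out a library and under the replicate block. In contrast with TBX3, TBX18 was higher in iREC, and it was not concentrated in iREC F, where it was 54.2 CPM against 32.8 to 51.2 CPM.

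In the calcineurin and NFAT list all 14 genes passed the filter, and edgeR called 2 higher and 2 lower, with a median of -0.002. Over all tested genes, 25.0% were called. NFATC4 rose from 1.05 ± 0.664 to 12.1 ± 1.84 CPM, and NFATC2 fell from 17.7 ± 6.98 to 0.536 ± 0.406 CPM (SD of 4 libraries, adjusted p of 0.000658 and 0.000837 by edgeR). RCAN2, an inhibitor of calcineurin, fell from 11.1 ± 4.11 to 2.55 ± 1.64 CPM (edgeR adjusted p 0.00892). PPP3CA, a catalytic subunit of calcineurin, was called higher at 0.82 on the log2 scale (edgeR adjusted p 0.0315), a call that 6 of the 8 fits without a library did not keep. NFATC3, NFAT5 and the common calcineurin target RCAN1 were not called, with edgeR adjusted p of 0.962, 0.0674 and 0.237.

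The genes of the cushion transition from endocardium to mesenchyme numbered 16, of which 13 passed the filter. edgeR called 6 higher and 1 lower (median 1.16). BMP4 rose from 3.05 ± 1.39 to 134 ± 49.3 CPM (SD of 4 libraries), a log2 fold change of 5.46 ± 0.41 (SE) with an adjusted p of 4.70e-05 by edgeR. TGFB2 rose from 6.31 ± 6.36 to 99.2 ± 86.0 CPM, with 224 CPM in iREC F, and its co-receptor TGFBR3 from 63.0 ± 53.7 to 493 ± 177 CPM (edgeR adjusted p 0.00813 and 0.00564). PRRX1, a mesenchymal homeobox factor, fell from 5.50 ± 2.20 to 1.16 ± 0.720 CPM (edgeR adjusted p 0.0171, and 0.0569 without iREC D). Of the transcription factors of this transition, SNAI2 and ZEB2 were called higher, at log2 fold changes of 2.76 and 1.63 (edgeR adjusted p 0.00426 and 0.00367). SNAI1 (-0.70), ZEB1 (-0.59) and SOX9 (0.034) were not called, with edgeR adjusted p of 0.180, 0.206 and 0.983.

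In the natriuretic peptide system, to which NPR3 belongs, 6 of 9 other genes passed the filter and edgeR called 3, all higher (median 2.26). NPR1, the guanylyl cyclase receptor, rose from 58.1 ± 20.0 to 148 ± 50 CPM (edgeR adjusted p 0.0132). PRKG1, the cyclic GMP-dependent kinase, rose from 2.46 ± 1.85 to 17.8 ± 3.73 CPM (edgeR adjusted p 0.00249). CORIN, the protease that activates the atrial peptide, was 3.97 ± 0.374 CPM in iREC (SD of 4 libraries, adjusted p of 2.54e-05 by edgeR). In iEC it was 0.118 to 0.143 CPM, under the detection floor in every library, so it passed the filter through iREC alone. NPR2 was not called (edgeR adjusted p 0.228). The ligand gene NPPB ran from 1.71 to 26.2 CPM in iEC, and from 21.0 to 210 CPM in iREC, highest in iREC F, with an edgeR adjusted p of 0.0514, and NPPA was below 1 CPM in every library.

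Of 12 other type II cadherins, 7 passed the filter and all 7 were called by edgeR, 6 higher and 1 lower (median 2.88). Over all tested genes, 25.0% were called, 13.2% higher and 11.7% lower. CDH6, with 0 counts in iEC, and CDH7, at most 0.316 CPM there, passed the filter through iREC alone. Under limma-voom and under the replicate block 5 were called. CDH8 had a mean of 1.12 ± 0.348 CPM in iEC, against 31.5 ± 38.1 CPM in iREC and 87.6 CPM in iREC F alone (edgeR adjusted p 0.00399, limma-voom 0.0519). CDH7 rose from 0.110 ± 0.140 to 2.25 ± 0.692 CPM (edgeR adjusted p 0.00196). CDH6 had 0 counts in iEC and 0.983 to 6.72 CPM in iREC (edgeR adjusted p 0.00290). CDH5, the cadherin of endothelial adherens junctions, fell from 1351 ± 229 to 799 ± 204 CPM (SD of 4 libraries, adjusted p of 0.0298 by edgeR), a call lost in 4 of the 8 fits without a library and under the replicate block, where the adjusted p was 0.0803.

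**Figure D4:**
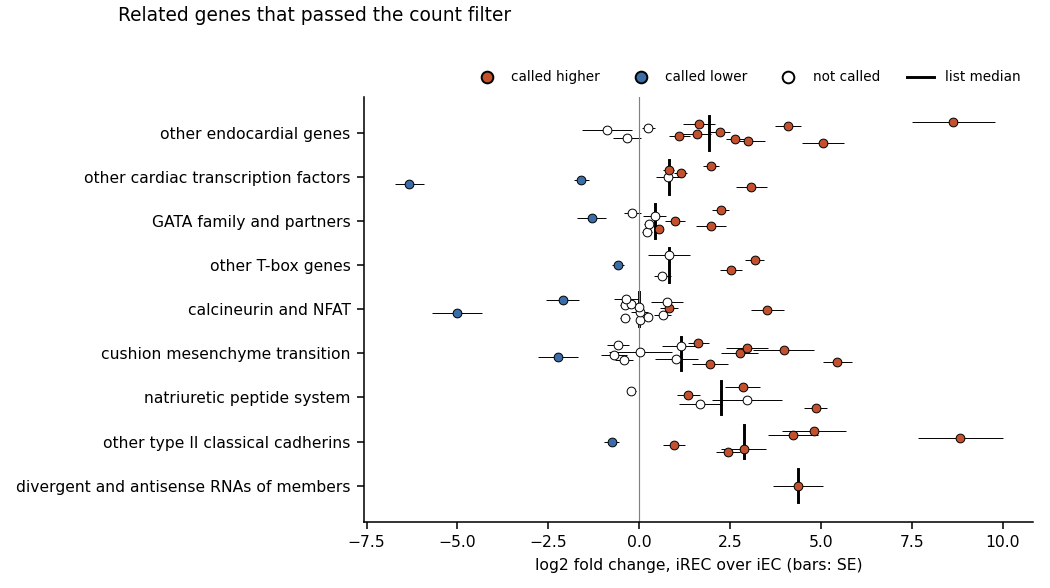
Log2 fold change of iREC over iEC, with SE, for genes related to the members that passed the filter on low counts, by list, filled where edgeR called them at an adjusted p under 0.05, with a bar at the list median. The 12 endocardial genes have a median of 1.93 and the 14 calcineurin and NFAT genes one of -0.002; the fitted value of CDH6, at 8.83, is against an iEC group with 0 counts and depends on the prior count.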

How the data were processed

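Poly-A RNA of 8 libraries was sequenced. Per the submitters' processing notes, fastp and HISAT2 2.0.5 were used with hg38; the counting program is not given in the sources used here. The authors deposited raw counts per gene, normalized values that are the count divided by 1 factor per sample (a signal on the scale of counts), FPKM, log2 fold changes and p-values. Of these, the counts and gene lengths were used here. Identifiers and positions of the members matched GENCODE 29.

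Genes were kept by filterByExpr of edgeR 4.0.16 and scaled by TMM. Groups were compared by its quasi-likelihood test over all 8 libraries, with Benjamini-Hochberg adjustment over 15330 genes and calls at an adjusted p under 0.05. The prior count for log2 CPM was 2. The depth of 13739364 to 16971865 counts per library sets the floor of 3 counts; floors and intervals cover counting error only. In simulated counts (15012 genes tested), 37.3% of 2-fold, 88.1% of 4-fold and 98.5% of 8-fold changes were recovered, and 6.29% of calls were false. Only 67, 67 and 66 genes were changed there by these amounts, none of them at a very low level. In the data 25.0% of tested genes were called, so the simulated rates need not hold for them.

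The members and lists were chosen with earlier results of these data known. Named were the members, up to 3 called genes a direction in each list with at least 1 CPM in a group, and the 3 nearest profiles of 4 members; GATA2, HAND1, HAPLN1, NOTCH1, DLL4, NKX2-5, ISL1, SNAI1, SNAI2, ZEB1, ZEB2, SOX9, NFATC3, NFAT5, RCAN1, NPR2, NPPA, NPPB, HAND2-AS1 and further single marker genes were added to the text with their values known. Results were recomputed with DESeq2 1.42.0, with its size factors alone, no filter, limma-voom (limma 3.58.1), the replicate letter as a block, and each library left out. The endoderm and hepatocyte list holds 1 called gene that is not reported here.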

Additional observations from a re-analysis of the deposited data

Results flagged for a closer look

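Dixon's criterion was applied on the scale of log2(CPM + 0.1) to groups of 4 libraries: an extreme value was picked where it lay farther from its neighbour than 0.829 of the whole range. Over 49 groups of member levels and list sums, 2 were picked, where chance gives about 2.5. CDH11 was 245 CPM in iREC F, against 97.9 to 100.1 CPM in the other iREC libraries. GATA5 was 0.143 CPM in iEC F, which is 2 counts, against 0 in the other iEC libraries.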

How the results depend on the processing

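Of 23 results (16 counts of calls and the fold changes of 7 members), 19 stayed within 1.5 times the count, or within the spread between replicates, under all 5 alternatives with all libraries, and none (0) changed sign under any of the 13 alternatives. Without the filter, 5 natriuretic genes, 2 antisense RNAs, 4 cardiomyocyte markers and 7 mesenchymal markers were called, against 3, 1, 2 and 4. DESeq2 called 5, 2 and 9 of the natriuretic, antisense and mesenchymal lists. limma-voom called 0 cardiomyocyte markers, with 2 at an unadjusted p under 0.05. Leaving out 1 library at a time, counts ran from 3 to 6 for GATA partners, 3 to 5 for natriuretic genes, 1 to 2 for antisense RNAs and 2 to 8 for mesenchymal markers (lowest without iREC D, highest without iEC F). The log2 fold change ran from 1.41 (without iREC F) to 4.66 for GATA4, from 3.75 to 5.62 for GATA6 and from 7.79 to 10.71 for NPR3, the last 2 highest without iEC D. Whether the replicate letters pair the libraries is undecided. Deviations of same-lettered libraries correlated at 0.17, -0.079, 0.029 and 0.25 for C, D, E and F. Those of different letters ran from -0.221 (iEC D with iREC F) to 0.178 (iEC D with iREC C), so the F pair was the highest. Under the replicate block the log2 fold change of GATA4 was 2.88. With the letter as a replicate block 3334 genes were called in place of 3829, and 7 mesenchymal markers in place of 4. Depth limits TBX2 and TBX20, whose counts lay near the floor.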

Other observations

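GATA4 is also known as a regulator of liver sinusoidal endothelium, and 12 markers of that endothelium were examined beside the members. Of 9 that passed the filter on low counts, edgeR called 7, all higher in iREC, with a median log2 fold change of 5.94. Over all tested genes, 13.2% were called higher. STAB2, CRHBP and CLEC4M were at most 0.355 CPM in any iEC library and passed the filter through iREC alone. For these a call in the other direction was hardly possible. LYVE1, at 488 ± 206 CPM in iEC and 362 ± 149 CPM in iREC (SD of 4 libraries), and FCN3 were not called. Their edgeR adjusted p was 0.412 and 0.541. STAB2, a scavenger receptor, rose from 0.185 ± 0.145 to 194 ± 125 CPM (SD of 4 libraries, adjusted p of 6.32e-05 by edgeR), and OIT3 from 0.368 ± 0.461 to 43.9 ± 18.1 CPM (edgeR adjusted p 0.000273). CRHBP had 0 to 0.143 CPM in iEC and 102 to 847 CPM in iREC. The summed level of the sinusoidal list was 1232 CPM in iREC C, 2663 in D, 3289 in E and 1361 in F. In the same libraries GATA4 was 0.393, 7.07, 2.57 and 74.0 CPM. The sum of general endothelial markers was lowest in iREC F, at 4286 CPM. A part of GATA4 in the sinusoidal levels was not tested.

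GATA4 and GATA6 also act in endoderm. Of 12 endoderm and hepatocyte markers, 5 passed the filter, and edgeR called 2 higher and 1 lower (median 0.075). TTR, the transthyretin gene, was 15.0 to 73.0 CPM in iREC and at most 0.195 CPM in iEC, and was lowest among the iREC libraries in F. It passed the filter through iREC alone. CXCR4 fell from 52.0 ± 26.0 to 12.8 ± 4.90 CPM (SD of 4 libraries, adjusted p of 0.00503 by edgeR). FOXA2 was 0 in every iREC library, and ALB and AFP were at most 0.195 and 1.21 CPM in any library.

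Among the epicardial and mesothelial markers, 6 of 10 passed the filter, and edgeR called 2 higher and 1 lower. ALDH1A2 fell from 17.3 ± 9.48 to 2.46 ± 0.987 CPM and ITLN1 rose from 0.0808 ± 0.123 to 5.10 ± 1.54 CPM (SD of 4 libraries, adjusted p of 0.00181 and 0.000555 by edgeR). ITLN1 was at most 0.260 CPM in any iEC library and passed the filter through iREC alone. LRRN4 was called at an edgeR adjusted p of 0.0436, in only 2 of the 8 fits that left out a library, and not without iREC F, under limma-voom (adjusted p of 0.367) or under the replicate block (0.0879). Among 12 mesenchymal and mural markers, edgeR called 3 of 10 tested higher (LUM, CNN1 and TAGLN) and RGS5 lower. The LUM call was kept in 3 of the 8 fits without a library and lost without iREC F and under limma-voom (adjusted p of 0.267). That of RGS5 was kept in 5 of those fits and lost under the replicate block (adjusted p of 0.0536). In contrast, TAGLN, at 318 to 870 CPM in iREC against 25.4 to 58.2 CPM in iEC, and CNN1 were called whichever single library was left out. Of 10 endothelial markers, 3 were called higher (EMCN, TEK and CLDN5) and 3 lower (PECAM1, ROBO4 and CDH5), and the CLDN5 call was kept in only 1 of the 8 fits without a library and lost under limma-voom and the replicate block (adjusted p of 0.0681 and 0.0879).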
